A study of Mus musculus with 19 samples.

Results

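Complement genes of retinal microglia were examined in bulk RNA-seq of the laser model of choroidal neovascularization (CNV), the growth of vessels from the choroid into the outer retina. The 9 genes were chosen by name out of the 27299 genes of the deposited table: the C1q chain genes *C1qa*, *C1qb* and *C1qc*, the components *C3* and *C4b*, factor B (*Cfb*), properdin (*Cfp*), and the receptors *C3ar1* and *C5ar1*. All 9 had reads and entered the comparison. Sorted microglia of 6 lasered samples, with 6 burns in each eye and collected on day 3 (CNV d3), stood against those of 6 unlasered control samples, and all mice were 8 weeks old. The mouse strain is C57BL/6J and the cells are CD45+ by the labels. The methods instead give *Cx3cr1* GFP/+ mice, which carry a reporter in place of one copy of the fractalkine receptor gene, and cells low for CD45. In both groups the sorted cells were positive for CD11b and CX3CR1 and negative for Ly6C and Ly6G, which mark monocytes and neutrophils. The whole central retina was taken, so cells from outside the burns are part of each CNV d3 sample, and nothing in the labels says whether a sample is 1 mouse or a pool.

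Complement is a cascade of plasma and tissue proteins that tags cells, debris and microbes. The classical pathway starts with C1q and cleaves C4, the alternative pathway is driven by factor B and stabilized by properdin, and both meet at C3, whose fragments are read by receptors on phagocytes. In the central nervous system microglia are a main source of C1q, and variants in complement genes are among the best-known risk factors for age-related macular degeneration.

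Libraries held between 10963178 and 22335233 reads on genes in control and between 23532260 and 29523018 in CNV d3. Genes with reads numbered 15076 to 17224 in control and 18276 to 19116 in CNV d3, so neither measure overlapped between the groups. Values are normalized counts, that is reads divided by the size factor of a library, and 1 read was worth 0.739 to 1.99 of them. A gene counted as a DEG, a differentially expressed gene, where its log2 fold change exceeded 1.5 in either direction and its adjusted p was below 0.05. Some libraries stood apart. CNV d3 replicates 4, 5 and 6 had 3529 to 4284 summed normalized counts on 4 Y-linked genes and at most 0.866 of *Xist*, while all 6 control samples and CNV d3 replicates 1, 2 and 3 had at most 0.895 and between 3116 and 9795. The labels give no sex. All 6 control samples were listed in 2 parts, and of the CNV d3 samples only replicate 4, so this listing nearly follows the groups. Markers of other cells moved with the groups as well. Of 10 microglia markers, 7 were lower in CNV d3 by the adjusted p of limma, and their summed level was 605400 to 892200 against 1103000 to 1262000 in control. Of 12 monocyte markers, 6 were higher, with sums of 31070 to 80480 against 11010 to 17350, and *Ly6c2* and *Chil3* were at 0 in all control samples. In CNV d3 *Ly6c2*, *Chil3* and *Ccr2* reached at most 25.1, 14.1 and 1351, so most of that sum came from other genes of the list. The mean of *Ccr2* rose from 34.2 to 664, without overlap (adjusted p = 0.00455 in limma), while *Chil3* did not pass (adjusted p = 0.0833 in limma). Of 8 dendritic cell markers, 5 were higher, with overlapping sums of 359 to 2844 against 23.8 to 514. Of 8 border macrophage markers, 3 were higher (*Cbr2*, *Folr2* and *Clec10a*), with overlapping sums of 251 to 696 against 141 to 1734. Of 10 Mueller glia and astrocyte markers, 3 were higher and 1 was lower. Their sum was 57590 to 99510 against 19450 to 41210, and without *Apoe*, which microglia can express too, it was 5394 to 7751 against 6987 to 9839, with overlap. Of 8 endothelial and pericyte markers, *Kdr* was higher and *Pecam1* lower. Photoreceptor sums overlapped (948 to 7953 in control, 711 to 14340 in CNV d3), and T and NK cell markers summed to at most 4.29 in control and 32.6 in CNV d3. In such bulk samples, fewer cells of a type and less RNA per cell cannot be told apart. What these markers, the Y-linked reads and the listing in parts contribute to the results below was not tested.

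Windows of 250 bases upstream of the transcription start, from RefSeq on GRCm38.p6, are shown for genes that behaved differently: *C1qb*, which held its level, *C3*, which did not pass the test, and *Cfp*, which rose. They lie on the minus strand at chr4:136886201-136886450, chr17:57228137-57228386 and chrX:20931556-20931805, and run 5′ to 3′ along the gene. Capitals mark matches to the letters searched for on both strands, where N is any base: GAGGAA (the core bound by PU.1, the lineage factor of macrophages), TTGCNNAA (C/EBP), TGANTCA (AP-1), TTCNNNGAA (GAS), the letters of the ISRE (GAAA, any 2 bases, GAAA) and of NF-kB (GGGA, any 4 bases, CC).
C1qb: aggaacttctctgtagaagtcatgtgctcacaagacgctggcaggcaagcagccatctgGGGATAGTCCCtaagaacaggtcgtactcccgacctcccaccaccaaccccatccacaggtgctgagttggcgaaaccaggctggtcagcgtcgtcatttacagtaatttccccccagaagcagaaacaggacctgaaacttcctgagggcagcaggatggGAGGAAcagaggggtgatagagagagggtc
C3: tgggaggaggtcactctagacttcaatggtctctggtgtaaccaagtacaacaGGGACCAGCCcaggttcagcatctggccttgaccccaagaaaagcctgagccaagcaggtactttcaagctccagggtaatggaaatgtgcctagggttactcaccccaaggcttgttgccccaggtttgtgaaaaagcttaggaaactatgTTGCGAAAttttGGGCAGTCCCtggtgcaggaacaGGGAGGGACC
Cfp: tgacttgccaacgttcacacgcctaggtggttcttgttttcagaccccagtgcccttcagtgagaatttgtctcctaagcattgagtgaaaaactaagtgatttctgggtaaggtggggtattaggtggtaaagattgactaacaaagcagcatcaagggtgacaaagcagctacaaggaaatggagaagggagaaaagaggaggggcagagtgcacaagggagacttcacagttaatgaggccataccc
Among 6 complement genes with an entry, the window of *C1qb* held GAGGAA from 30 to 25 bases upstream of the start and the NF-kB letters on both strands, overlapping, from 191 to 181. The window of *C3* held the C/EBP letters from 45 to 38 bases upstream and the NF-kB letters at 3 places. The windows of *C1qc* (GAGGAA on the opposite strand, NF-kB) and *C3ar1* (AP-1) also held matches, and those of *Cfp* and *C5ar1* held none of the 6. The window of *C1qc* reaches into the annotated transcript of the gene, so its matches may lie inside that transcript. For *C3ar1* and *C5ar1* such an overlap was not examined. These letters are common: of 32851 mouse promoters of this length, 23.3% held GAGGAA, 17.6% the NF-kB letters, 9.56% the C/EBP letters, 7.02% GAS, 6.75% AP-1 and 2.98% ISRE. A match describes letters and no binding was measured. *C1qa*, *C4b* and *Cfb* had no entry.

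Among the 9 complement genes, *C4b*, *Cfb* and *Cfp* rose 7.02- to 9.05-fold in CNV d3, *C1qa* fell by 30.1%, and the other 5 did not pass the test. The increased genes encode the C4 component, the protease of the alternative pathway and the stabilizer of its convertase. The 3 increased genes were DEG, where 3.91% of all genes tested were increased DEG. No complement gene of the 9 was a decreased DEG in limma, edgeR or DESeq2, against 1.07% of all genes, and at an unadjusted p under 0.05 in limma there was likewise none of that size. By the adjusted p alone 3 were higher and 1, *C1qa*, was lower, where 8.29% and 4.57% of all genes passed. For 3 genes every CNV d3 value exceeded every control value and for 1 every value was lower, against 4.64% and 2.83% of all genes. The median log2 fold change of the 9 genes was 0.01 and that of all genes 0.15.

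**Figure D1:**
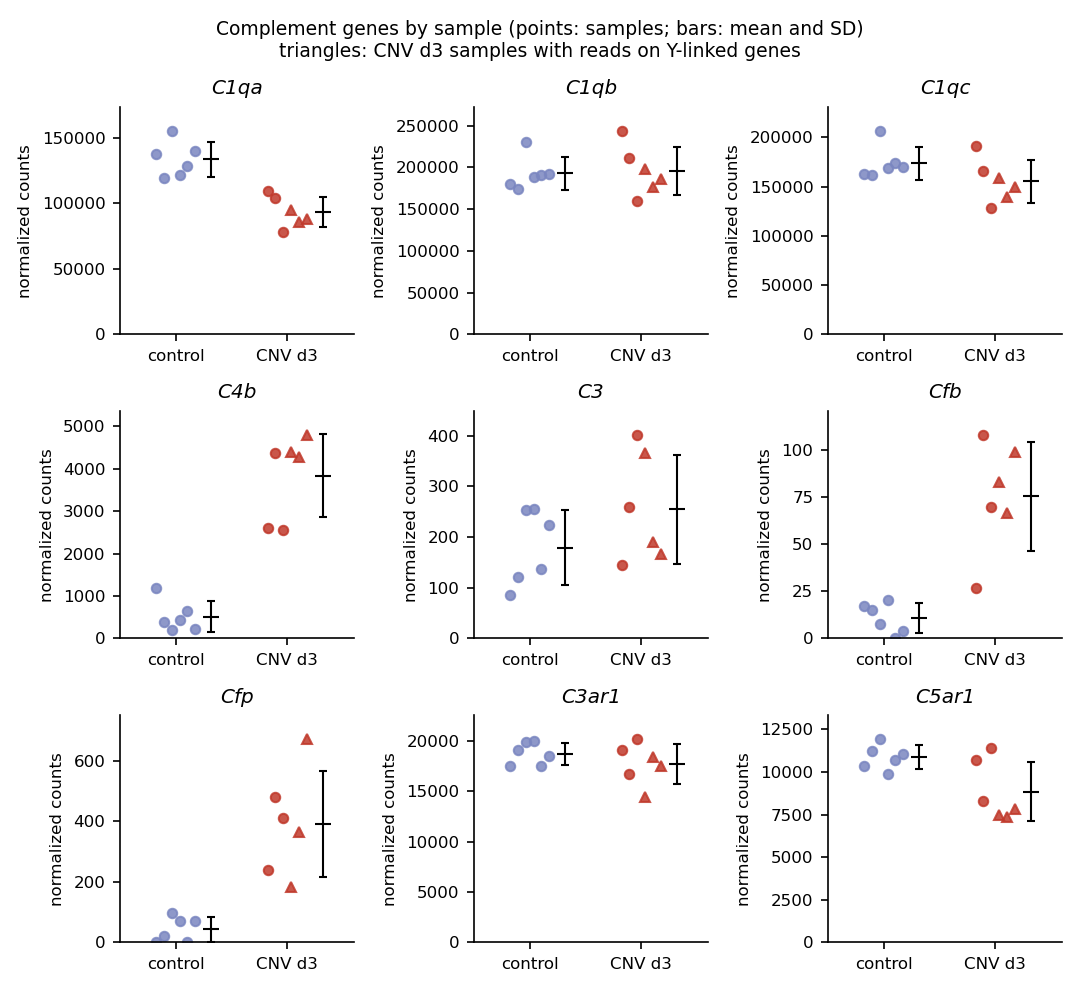
Normalized counts of the 9 complement genes in each of 6 control and 6 CNV d3 samples, with each panel on its own linear axis from 0 and bars for the mean and SD. The CNV d3 points lie wholly above those of control for *C4b*, *Cfb* and *Cfp* and wholly below for *C1qa*; triangles are the 3 CNV d3 samples with reads on Y-linked genes, which hold the lowest *C5ar1* values.

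The C1q genes of the classical pathway had the highest levels of the 9. They encode the 3 chains of C1q, the recognition protein that binds antibody and tagged surfaces, and lie side by side on the minus strand of chromosome 4 (GRCm38, *C1qb* at chr4:136880129-136886187, *C1qc* at chr4:136889804-136893065, *C1qa* at chr4:136895917-136898803). By mean level *C1qb* ranked 8 of all genes in control and 7 in CNV d3, *C1qc* ranked 11 in both, and *C1qa* ranked 15 and 19. Together the chains made up 2.29% ± 0.20 of all normalized counts in the control samples and 2.07% ± 0.27 in CNV d3 (SD, n = 6), a difference within the spread of the samples (two-sided exact permutation test, p = 0.145).

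*C1qa*, the A chain, lay between 119247 and 154838 normalized counts in control, with a median of 132889, and between 78249 and 109271 in CNV d3, with a median of 91434. The groups did not overlap. The mean fell from 133492 ± 13321 to 93319 ± 11657 (SD, n = 6), a log2 fold change of -0.52 (SE 0.087, adjusted p = 0.00107 in limma; two-sided exact permutation p = 0.00216, the smallest that 6 against 6 allows). *C1qb*, the B chain, ranged from 173948 to 230399 (median 190048) in control and from 159762 to 243043 (median 191967) in CNV d3. The control range lay within that of CNV d3, and the log2 fold change was 0.01 (SE 0.093, adjusted p = 0.931 in limma). *C1qc*, the C chain, was between 161238 and 205970 (median 169052) in control and between 127967 and 191038 (median 154086) in CNV d3, again with overlap and with a log2 fold change of -0.17 (SE 0.089, adjusted p = 0.271 in limma). With CNV d3 replicates 1, 2 and 3 alone the log2 fold change of *C1qa* was -0.47 and its adjusted p in limma 0.0925, and without the 3 CNV d3 samples highest in the monocyte marker *Ccr2* it was -0.38 with 0.0835.

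The balance between the chains within a sample separated the groups, and it does not depend on the size factor, which cancels in a ratio. These ratios were chosen after the values were seen. The ratio of *C1qa* to *C1qb* was 0.643 to 0.764 in control and 0.450 to 0.492 in CNV d3, with means of 0.694 ± 0.044 and 0.479 ± 0.016 (SD, n = 6). This is a decrease of 31.0%, or -0.53 on the log2 scale (SE 0.042), and the groups did not overlap. The ratio of *C1qa* to *C1qc* was 0.721 to 0.845 in control and 0.572 to 0.627 in CNV d3 (log2 difference -0.35, SE 0.043). The ratio of *C1qb* to *C1qc* was 1.08 to 1.13 in control and 1.24 to 1.27 in CNV d3 (log2 difference 0.18, SE 0.011). Each of the 3 ratios gave a two-sided exact permutation p of 0.00216, the smallest of 924 labellings and not adjusted over the 3. As shares of all C1q counts, *C1qa* went from 26.7% to 21.0%, *C1qb* from 38.5% to 44.0%, and *C1qc* from 34.7% to 35.0%, with exact permutation p of 0.00216, 0.00216 and 0.472.

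The difference in the ratio of *C1qa* to *C1qb* was of similar size in each subset of the CNV d3 samples that was compared. With replicates 1, 2 and 3, which lack Y-linked reads, the log2 difference of *C1qa* to *C1qb* was -0.54, and with replicates 1, 2 and 4, which have the least *Ccr2*, it was -0.55 (two-sided exact permutation p = 0.0119 in both, the smallest that 3 against 6 allows). Since the full groups do not overlap, this p was largely set in advance and adds no support. The part of Y-linked reads and of monocyte markers in the ratios was not tested. CNV d3 replicate 4, the only CNV d3 sample that was listed in 2 parts like all control samples, gave -0.53 as a value with no test. Leaving out each of the 12 samples in turn kept this difference between -0.56 and -0.51.

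**Figure D2:**
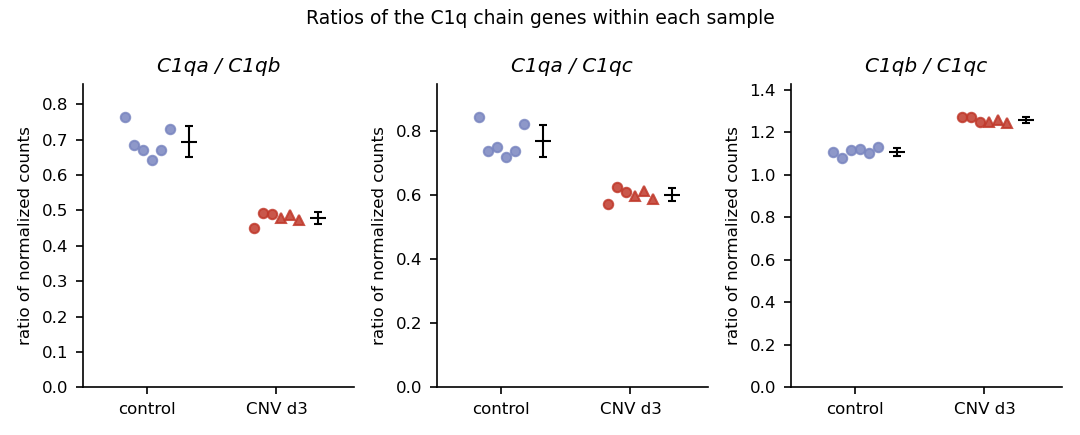
Ratios of normalized counts between the 3 C1q chain genes within each sample, on linear axes from 0, for 6 control and 6 CNV d3 samples, with bars for the mean and SD and triangles for CNV d3 samples with Y-linked reads. No CNV d3 sample reaches the control range in any of the 3 ratios, and circles and triangles of CNV d3 lie together.

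*C4b*, the C4 protein that C1s cleaves and that helps form the C3 convertase (minus strand, chr17:34728380-34743882), showed the smallest adjusted p of the 9. Control values were 209 to 1191 normalized counts with a median of 411, and CNV d3 values were 2567 to 4788 with a median of 4335. The lowest CNV d3 sample was more than the highest control sample, which at 1191 stood above the other control samples, of which none passed 642. The mean rose 7.47-fold from 514 ± 368 to 3838 ± 986 (SD, n = 6), with a log2 fold change of 3.13 (SE 0.36, adjusted p = 7.00e-05 in limma). *C4b* stayed a DEG with CNV d3 replicates 1, 2 and 3 alone (log2 fold change 2.86, adjusted p = 0.0255 in limma) and with replicates 1, 2 and 4 (3.12 and 0.0213). The samples with Y-linked reads held 4287 to 4788 and the others 2567 to 4384. Of windows of 50 bases in its transcripts, 34.6% also occur in the near-identical *C4a*. Reads that match both genes can be dropped from a count, so the level of *C4b* is uncertain and can be too low in both groups. *C4a* itself had means of only 0.169 and 0.680 normalized counts.

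*C3*, the protein at which all activation pathways meet (minus strand, chr17:57203970-57228136), was low. It ranged from 84.8 to 255 normalized counts (median 180) in control and from 145.5 to 401 (median 225) in CNV d3, with overlap. The means were 179 ± 73.9 and 255 ± 107 (SD, n = 6), and the log2 fold change was 0.51 (SE 0.34, adjusted p = 0.401 in limma). Leaving out each sample moved the log2 fold change between 0.32 and 0.65, and the adjusted p never passed the threshold.

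The alternative pathway genes *Cfb* and *Cfp* were low in control. *Cfb* encodes the protease that forms the alternative C3 convertase (minus strand, chr17:34856374-34862518). It was at 0 in 1 control sample and reached 20.3 normalized counts in the highest, with a median of 11.5, and lay between 26.6 and 108 in CNV d3, with a median of 76.4. The groups did not overlap. The mean rose from 10.8 ± 8.02 to 75.4 ± 28.8 (SD, n = 6), 7.02-fold, with a log2 fold change of 3.12 (SE 0.78, adjusted p = 0.0146 in limma). These are 36 to 129 reads a library in CNV d3 and at most 20 in control. In Gencode M21 the gene model *Gm20547* overlaps 79.5% of the exon bases of *Cfb*. Reads there are dropped by a count that does not accept more than 1 gene. By that annotation the level of *Cfb* rests on 579 of 2825 exon bases.

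*Cfp* encodes properdin, the one known positive regulator of the cascade, which stabilizes that convertase (minus strand, chrX:20925454-20931555). It was at 0 in 2 control samples and at most 95.7 normalized counts in the others, with a median of 46.2, and between 182 and 671 in CNV d3, with a median of 388. The groups did not overlap, and the lowest CNV d3 sample was CNV d3 replicate 4. The mean rose 9.05-fold from 43.3 ± 41.3 to 391 ± 176 (SD, n = 6), with a log2 fold change of 4.58 (SE 1.11, adjusted p = 0.0123 in limma) and of 3.20 in edgeR (adjusted p = 0.0137). The call of *Cfp* was lost when CNV d3 replicate 2, 3, 5 or 6 was left out, with adjusted p between 0.0526 and 0.0634 in limma and log2 fold changes of 4.40 to 4.58. With CNV d3 replicates 1, 2 and 3 alone, the log2 fold changes of *Cfb* and *Cfp* were 2.89 and 4.60 and their adjusted p in limma 0.186 and 0.200; with replicates 1, 2 and 4 they were 2.97 and 4.21 with 0.196 and 0.278.

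The anaphylatoxin receptors were high in both groups. *C3ar1*, the receptor of the C3a fragment (minus strand, chr6:122847138-122856161), held 17502 to 19977 normalized counts (median 18811) in control and 14452 to 20178 (median 17983) in CNV d3, with overlap, and its log2 fold change was -0.09 (SE 0.080, adjusted p = 0.547 in limma). *C5ar1*, the receptor of C5a (minus strand, chr7:16246743-16259540), held 9912 to 11917 (median 10885) in control and 7358 to 11401 (median 8068) in CNV d3. Its log2 fold change of -0.32 (SE 0.11) did not pass the adjusted p in limma (0.0781), while the two-sided exact permutation p of the gene alone was 0.0390. The 3 CNV d3 samples with Y-linked reads held 7358 to 7846, the lowest values of the 12, and the others held 8290 to 11401. With replicates 1, 2 and 3 alone its log2 fold change was -0.11 (adjusted p = 0.631 in limma). A difference between the 2 kinds of CNV d3 sample was not tested.

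Levels of different genes were set side by side per kilobase of exon that no other gene overlaps in Gencode M21. Sequence that *C4b* shares with *C4a* was not taken out of its length, so the level of *C4b* per kilobase can be too low. In control the order was *C1qb* (177100 normalized counts per kilobase), *C1qa* (128360), *C1qc* (89914), *C3ar1* (4355), *C5ar1* (4227), *C4b* (90.2), *C3* (34.8), *Cfp* (24.9) and *Cfb* (18.6). The ranges of *C3ar1* and *C5ar1* overlapped, as did those of each neighbouring pair from *C4b* to *Cfb*, while the 3 C1q genes stood in separate ranges. In CNV d3 *C1qb* had 179750 normalized counts per kilobase, *C1qa* 89730 and *C1qc* 80467, and the ranges of the last pair overlapped, although *C1qa* was above *C1qc* in all 6 samples. *C4b* came to 674 per kilobase, above the ranges of *Cfp* (225), *Cfb* (130) and *C3* (49.5), which overlapped with their neighbours. By this measure *C3* moved from above both alternative pathway genes in mean level to below them. For *Cfb* this rests on the 579 of 2825 exon bases left by the overlap in Gencode M21. With a longer countable length its level per kilobase would be lower, so its order against *C3* in CNV d3 is uncertain.

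**Figure D3:**
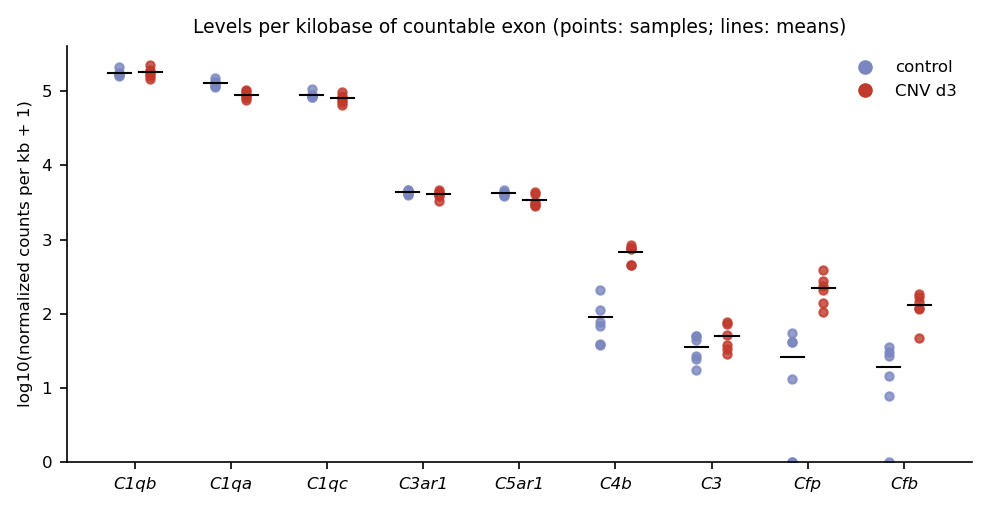
Level of each of the 9 genes per kilobase of exon that no other gene overlaps, as log10 of normalized counts per kilobase plus 1, ordered by the control mean, with 6 points a group and lines for the means. The C1q genes lie highest and the receptors next, and *C4b*, *Cfp* and *Cfb* are the genes whose CNV d3 points all lie above those of control.

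Complement genes also varied within groups. Deviations from the group mean of log2(normalized counts + 1) were compared over the 12 samples, which share library and size factor for every pair of genes, so these correlations are descriptions. *C1qb* and *C1qc* deviated together (Pearson r = 1.00), and *C1qa* followed them with r = 0.91 and 0.90. *C3ar1* and *C5ar1* had r = 0.63, and *C4b* and *Cfp* r = -0.77. *Cfp* was at 0 in control replicates 1 and 5, which held the highest *C4b* values of control (1191 and 642 normalized counts). In CNV d3, replicate 6 was the highest sample for both genes (671 for *Cfp*, 4788 for *C4b*). Correlations of *Cfp*, with *C4b* and with the genes below, thus lean on the control samples at 0. Among 9415 protein-coding genes with a mean of at least 100 normalized counts, those most like *C1qa* outside the 9 were *Rabac1* (r = 0.935), *Cmtm7* (0.934) and *Lpcat3* (0.914). For *C4b* they were *Capn3* (0.881), *Ikbkg* (0.876) and *Letm1* (0.873), for *C3* *Luzp1* (0.893), *Ccdc117* (0.875) and *Zfp410* (0.875), and for *Cfp* *F8a* (0.969), *Pmf1* (0.941) and *Slc25a14* (0.931). For *C3ar1* they were *Msantd4* (0.894), *Eif4a1* (0.873) and *Cd63* (0.868), and for *C5ar1* *Llph* (0.826), *Map2k3* (0.808) and *Tatdn1* (0.786).

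A wider list of 59 complement genes put the 9 in context, and 43 of them had a row in the table. Of the 43, 7 were increased DEG, namely *C4b*, *Cfb*, *Cfp*, *Fcna*, *Colec12*, *Clu* and *Cpn1*, and no gene was a decreased DEG in limma, edgeR, DESeq2 or at an unadjusted p under 0.05 with the same fold. Of all genes tested, 3.91% were increased and 1.07% decreased DEG. The increased DEG of the list numbered 5 in edgeR and 7 in DESeq2. By the adjusted p alone 10 were higher, 3 were lower and 30 did not pass, where 8.29% of all genes were higher and 4.57% lower. The median log2 fold change was 0.63, against 0.15 over all genes. With the 11 genes at 0 in a whole group set to their bound, the median of the list was 0.32. The bound was 3 reads of the shallowest library of that group, and none was set in the median over all genes. With CNV d3 replicates 1, 2 and 3 alone the increased DEG were *C4b* and *Fcna*.

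In the classical pathway, *C1ra*, a protease of the C1 complex, had 79.8 ± 33.1 and 135 ± 24.5 normalized counts (SD, n = 6) and did not pass (adjusted p = 0.135 in limma). In the lectin pathway, which starts from sugar-binding proteins, *Fcna*, encoding ficolin A, was at 0 in all control samples and between 5.61 and 33.1 in CNV d3. Its CNV d3 mean of 14.3 was at least 2.40-fold higher than control, taking 3 reads of the shallowest control library as the floor (adjusted p = 4.78e-04 in limma), and the lowest CNV d3 sample was under that floor. *Colec12*, a scavenger receptor with a collectin domain, rose from 31.8 ± 50.1 to 250 ± 106 (SD, n = 6; adjusted p = 0.00682 in limma), with no overlap, and its log2 fold change was 4.62, against 4.60 (adjusted p = 0.152 in limma) with CNV d3 replicates 1, 2 and 3 alone. *Masp1*, a protease of the lectin pathway, went from 422 ± 114 to 683 ± 126 (SD, n = 6; log2 fold change 0.72, adjusted p = 0.0338 in limma), a call kept in 4 of 12 leave-one-out comparisons. Of the terminal components, which build the membrane pore, 0 of 5 genes passed in limma or edgeR and 1, *C8g*, passed in DESeq2, at an unadjusted p in limma, and in limma with a filter at 10 normalized counts in 6 samples or without control replicate 1. *Hc*, *C6*, *C7* and *C8a* were at 0 in all CNV d3 samples, and *C8g* had 14.0 ± 11.6 and 56.7 ± 25.5 normalized counts (SD, n = 6).

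Regulators went both ways. *Cr1l*, the membrane inhibitor Crry of rodents, fell from 3489 to 4454 in control to 2198 to 3005 in CNV d3, without overlap. Its log2 fold change was -0.64 (adjusted p = 4.87e-04 in limma), was called in all 12 leave-one-out comparisons, and was the same size with replicates 1, 2 and 3 alone (-0.64, adjusted p = 0.0164). *Clu*, clusterin, an inhibitor of pore formation, had 21.8 ± 33.4 and 80.8 ± 32.9 normalized counts with overlapping groups (adjusted p = 0.0293 in limma, 0.279 in edgeR and 0.256 in DESeq2). *Cpn1*, a carboxypeptidase that inactivates anaphylatoxins, lay at 0 to 3.04 in control and at 0 to 25.6 in CNV d3 (adjusted p = 0.0404 in limma, 0.0738 in edgeR and 0.0168 in DESeq2). The limma calls of *Clu* and *Cpn1* were each kept in only 2 of 12 leave-one-out comparisons.

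Of the receptors of C3 fragments, *Itgam*, the CD11b chain of complement receptor 3, was used for the sort and rose from 5598 to 7106 in control to 9262 to 11863 in CNV d3, without overlap (log2 fold change 0.72, adjusted p = 9.45e-05 in limma). Of its exon bases in Gencode M21, 68.7% overlap the gene model *Gm49368*, so that its count is uncertain. *Itgax*, the CD11c chain of complement receptor 4, rose 2.68-fold from 331 to 885 in control to 1308 to 2787 in CNV d3, also without overlap (log2 fold change 1.45, adjusted p = 0.00108 in limma). Their shared partner chain *Itgb2* had a log2 fold change of 0.08 (adjusted p = 0.455 in limma). With CNV d3 replicates 1, 2 and 3 alone the adjusted p of limma was 0.00457 for *Itgam* and 0.0722 for *Itgax*, at log2 fold changes of 0.68 and 1.43. *C5ar2*, the second receptor of C5a, had 1540 ± 525 and 1313 ± 295 normalized counts (SD, n = 6) and did not pass (adjusted p = 0.620 in limma).

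**Figure D4:**
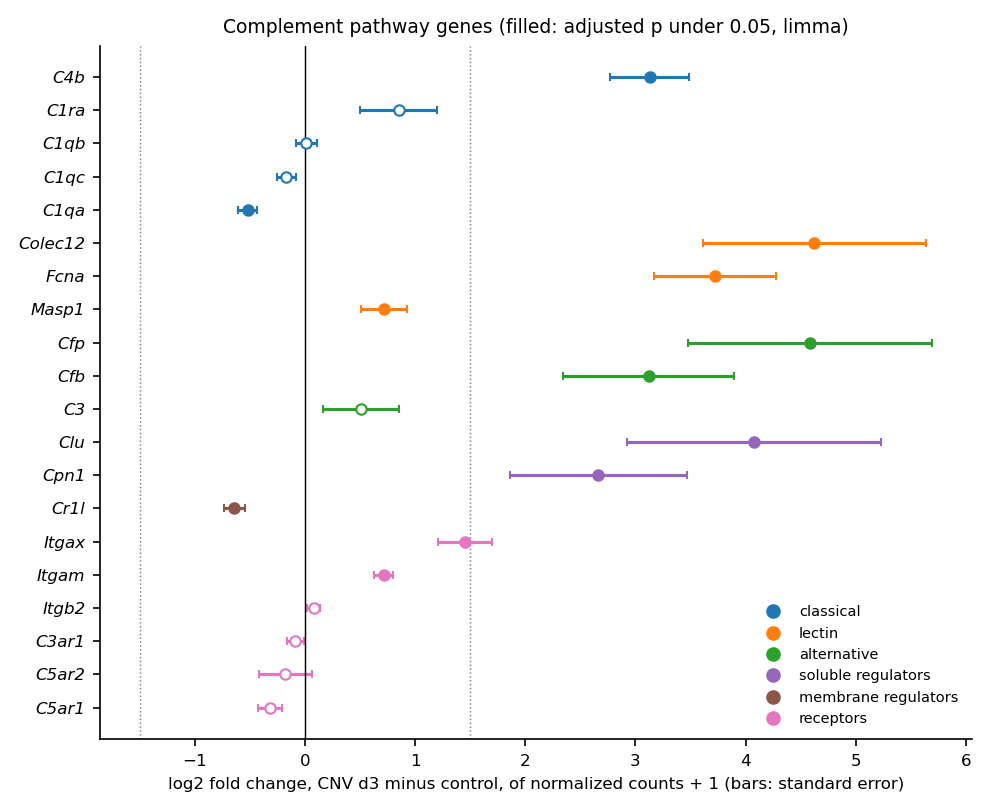
Log2 fold change of normalized counts plus 1, CNV d3 minus control, with its standard error, for 20 complement genes coloured by role, with filled points for an adjusted p under 0.05 in limma and dotted lines at 1.5 on either side of 0. *C4b*, *Cfb*, *Cfp*, *Fcna*, *Colec12*, *Clu* and *Cpn1* lie right of the dotted line, and *C1qa* and *Cr1l* are the filled points left of 0.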

How the data were processed

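RNA-seq of sorted retinal microglia was compared between 6 control and 6 CNV d3 samples, grouped by the labels, which do not say that samples are separate mice, so p-values measure the spread between these samples. Parts of one sample were counted as 1 sample. According to the methods, the authors mapped reads to the mouse genome with STAR 2.7.2b and counted them per gene with featureCounts 1.6.4 (versions from the submitters' processing notes, as is the build GRCm38.p6). The deposited signal is the normalized count, the read count divided by the DESeq2 size factor of the library. Deposited group means, log2 fold changes and adjusted p-values were not used. All values (100%, tolerance 0.01) were whole multiples of 1 read, so reads were recovered.

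A design written for counts or normalized values foresaw limma for the latter. limma 3.58.1 in R 4.3.3, with a mean-variance trend and no further filter, was run on log2(value + 1) of all 27299 genes, with Benjamini-Hochberg adjustment, so that fold changes are on that scale and, for genes at 0 in some samples, can lie above or below the fold of the means. Alternatives were edgeR 4.0.16 and DESeq2 1.42.0 on the recovered reads, limma voom, other scalings, pseudocounts and a filter. Further alternatives were the replicate block, reads thinned at random to the shallowest library, and leaving out samples. The fits were tested on simulated data. Exact permutation tests were two-sided over all labellings of 6 of 12 samples. Coordinates and overlaps came from Gencode M21 on the same build, with 27238 genes matched. The methods name another Gencode release for the authors' counts, so overlaps in those counts can differ. Named were the 9 genes, list genes that passed the adjusted p or had a mean of at least 100, and markers. Also named were the 3 genes most like each of the 9 outside *C1qb*, *C1qc* and *Cfb*, whose mean was below 100 in the case of *Cfb*. *C8g* was named after its values were seen. The 9 genes and all lists were chosen with earlier results of these data known. Comparisons with CNV d3 replicates 1, 2 and 3 alone, or 1, 2 and 4, and the chain ratios were added after the values were seen. The 16 list genes with no row were not analysed here. Another gene of the wider list and a marker are counted but not reported by name. Counting limits such as 3 reads cover counting error only, since reads had no molecular identifiers.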

Additional observations from a re-analysis of the deposited data

Results flagged for a closer look

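Control replicate 3 lay apart from the other 5 control samples in C1q. It held 230399 normalized counts of *C1qb* and 205970 of *C1qc*, and the C1q genes made up 2.67% of all its normalized counts. In each case its gap to the next sample was large for the range of the group by Dixon's criterion at 95%. Of 26 groups examined, 3 met it, all in this sample and from genes that vary together, and chance flags about 1 in 20 groups. Without control replicate 3 the log2 fold change of *C1qb* was 0.067 and that of *C1qc* -0.12, and neither passed in limma with or without it.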

How the results depend on the processing

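The number of increased DEG among the 9 complement genes was 3 under all pseudocounts, scalings, filters and tools tried, and 2 to 3 when 1 sample was left out. It was 1 with CNV d3 replicates 1, 2 and 3, 1 with replicates 1, 2 and 4, and 0 with replicate 4 alone, a lone sample assumed to vary like control. In the wider list the 7 increased DEG became 2, 3 and 3 in these subsets and 4 to 7 with 1 sample left out, with 4 without CNV d3 replicate 2, 3, 5 or 6. The subsets hold fewer samples. Genes lower by the adjusted p alone numbered 1, and 2 with a filter at 10 normalized counts in 6 samples, where fewer genes are tested and *C5ar1* passed (adjusted p = 0.0444 in limma), 0 in both subsets of 3, and 1 to 2 with 1 sample left out (2 without CNV d3 replicate 1 or 3). The log2 fold change of *C1qb* turned from 0.014 to -0.0041 and -0.014 without control replicate 1 or 2 and to -0.051 and -0.0098 without CNV d3 replicate 1 or 2, and its leave-one-out range was -0.051 to 0.070. With a pseudocount of 10 the wider list had 5 increased DEG. With reads thinned to the shallowest library the wider list had 6, without *Cpn1*, and the 9 genes had 3. With the replicate block, 3 of the 9 genes and 5 of the wider list were increased DEG in limma, and no call among the 9 changed. Replicate numbers do not pair the samples: same-numbered samples had correlations of -0.01 to 0.05. The median log2 fold change of expressed genes was 0.10, and 0.12 and 0.13 under TMM and total read scaling. Between 2 and 20 reads lie behind the control values of *Cfb* above 0, so that small changes were not detectable at this depth.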
